A study of Mus musculus with 12 samples.

Results

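The AMPA and kainate receptor subunits are the 9 genes that encode the pore-forming chains of these glutamate-gated channels: Gria1, Gria2, Gria3 and Gria4 for AMPA receptors, and Grik1, Grik2, Grik3, Grik4 and Grik5 for kainate receptors. They were taken by gene symbol, and all 9 were found among the 37620 gene identifiers of the count tables. Stranded mRNA libraries were sequenced from neural stem cells of C57BL/6J mice, taken from E14.5 embryos and kept dividing in culture with FGF-2 and EGF at 20 ng/ml each. There were 12 libraries, with 3 in each of 4 groups. The groups were E12-/- cells (E12KO), their E12+/+ litter mates (E12wt), E47-/- cells (E47KO) and their E47+/+ litter mates (E47wt). No group received a further treatment. Alternative splicing of the gene Tcf3 makes both E12 and E47, transcription factors of the basic helix-loop-helix class that are called E proteins. The sources used here do not state how the deletions were made, nor whether replicates stem from different embryos. The p-values therefore measure only the spread between these libraries. It may be technical in 3 of the groups, while within E47wt the sex-linked transcripts differ between libraries, which thus stem from more than 1 embryo.

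AMPA and kainate receptors are tetrameric cation channels that open when glutamate binds, and AMPA receptors carry most of the fast excitatory current between neurons. The GluA2 chain, encoded by Gria2, makes AMPA receptors nearly impermeable to calcium once its RNA is edited at the pore. Among kainate subunits, the products of Grik1, Grik2 and Grik3 can form channels by themselves, whereas those of Grik4 and Grik5 bind glutamate with high affinity but need one of the former to make a working channel. Neural progenitors and cells of the oligodendrocyte lineage also carry these receptors before synapses form.

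The libraries held 34515300 to 56835800 reads on genes, so that a floor of 3 reads corresponded to 0.0528 to 0.0869 CPM, the read count scaled to library size. The stem cell markers summed to 7442 to 8648 CPM in every library, led by Fabp7, Vim, Hes5 and Nes per length of exon. Neuron markers summed to 1082 to 1368 CPM, of which Map2 made up most, while Neurod2 stayed under 0.1 CPM everywhere. Microglia markers summed to at most 1.24 CPM and endothelial markers to at most 7.83 CPM. Tcf3 was read in every library, at 72.9 to 101 CPM in E12KO and 106 to 117 CPM in E47KO, against 75.8 to 82.4 CPM in E12wt and 75.8 to 97.1 CPM in E47wt. The counts are per gene and hold both splice forms together, so that Tcf3 does not check the genotypes. Replicate 2 of E47KO and replicate 3 of E12wt stood apart from the other libraries on the first and on the second principal component, respectively. Y-linked transcripts were read in all E47KO libraries and in E47wt replicate 2 (197 to 246 CPM summed), whereas the other 8 libraries had Xist and no more than 0.410 CPM of Y-linked transcripts.

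E proteins bind E-boxes, which are DNA motifs of the form CANNTG. The 250 bases before the start site were looked up for the members in RefSeq promoters of build GRCm38.p6, where 6 of the 9 had an entry (Gria2, Gria4, Grik2, Grik3, Grik4 and Grik5). The 3 windows that hold an E-box are printed 5′ to 3′ with the motif in capitals: those of Grik3, the lowest member relative to wild type in both knockouts, of Gria2, the most abundant member, and of Gria4, whose knockout values lay on opposite sides of the wild types in the 2 lines. They lie at chr4:125490446-125490695 on the plus strand for Grik3, at chr3:80802836-80803085 on the minus strand for Gria2, and at chr9:4796235-4796484 on the minus strand for Gria4.
Grik3: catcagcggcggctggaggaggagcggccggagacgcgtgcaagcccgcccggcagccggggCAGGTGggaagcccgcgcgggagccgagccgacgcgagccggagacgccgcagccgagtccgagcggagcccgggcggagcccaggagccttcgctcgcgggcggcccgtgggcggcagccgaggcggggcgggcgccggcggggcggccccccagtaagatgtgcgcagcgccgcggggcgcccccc
Gria2: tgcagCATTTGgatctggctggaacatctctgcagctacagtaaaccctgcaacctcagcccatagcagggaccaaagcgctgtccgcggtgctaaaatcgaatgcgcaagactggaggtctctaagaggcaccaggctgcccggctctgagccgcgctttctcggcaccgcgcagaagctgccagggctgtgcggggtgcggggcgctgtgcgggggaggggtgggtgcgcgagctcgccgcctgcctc
Gria4: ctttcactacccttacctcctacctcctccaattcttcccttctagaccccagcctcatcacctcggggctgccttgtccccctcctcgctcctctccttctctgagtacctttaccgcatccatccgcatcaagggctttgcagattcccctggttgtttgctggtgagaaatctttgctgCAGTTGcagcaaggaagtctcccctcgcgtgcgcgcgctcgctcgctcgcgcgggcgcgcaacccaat
The Grik3 window held 1 E-box, CAGGTG, 188 to 183 bases before the start. The motif in the Gria2 window was CATTTG, 245 to 240 bases before the start, and that in the Gria4 window was CAGTTG, 68 to 63 bases before it. The windows of Grik2, Grik4 and Grik5 held no CANNTG. Searched on both strands, CANNTG was in 66.2% of 32851 RefSeq windows of this length and CAGGTG, which is one of its forms, in 17.2%. These matches are letters in a window and no binding was measured.

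Levels were compared between genes as CPM per kilobase of exon (RPKM), given as mean ± SD over the 12 libraries. Gria2 had the highest level, at 15.1 ± 3.93 RPKM, and stood above the next gene in 11 of 12 libraries. Grik5, Gria4 and Gria3 came next at 8.59 ± 1.49, 8.06 ± 1.05 and 7.20 ± 1.13 RPKM. Those neighbours did not differ beyond their spread, with Grik5 above Gria4 in 6 of 12 libraries and Gria4 above Gria3 in 7 of 12. Grik3 followed at 4.82 ± 2.08 RPKM, below Gria3 in 11 of 12 libraries. Grik2 had 2.55 ± 0.337 RPKM and was below Grik3 in every library, although their ranges over the libraries overlapped. The level of Grik1 was 0.895 ± 0.336 RPKM and that of Grik4 0.685 ± 0.219 RPKM, with Grik1 the higher in 10 of 12 libraries. Gria1 was the lowest at 0.132 ± 0.0468 RPKM, and its range did not reach that of Grik4. In RPKM, Gria2 exceeded 84.2% of the 22125 genes with a read and a known exon length, Grik3 66.0% and Gria1 34.7%. Per length of the longest transcript in place of all exons, Gria3 moved from the fourth to the second place, at 13.6 RPKM on that scale.

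**Figure D1:**
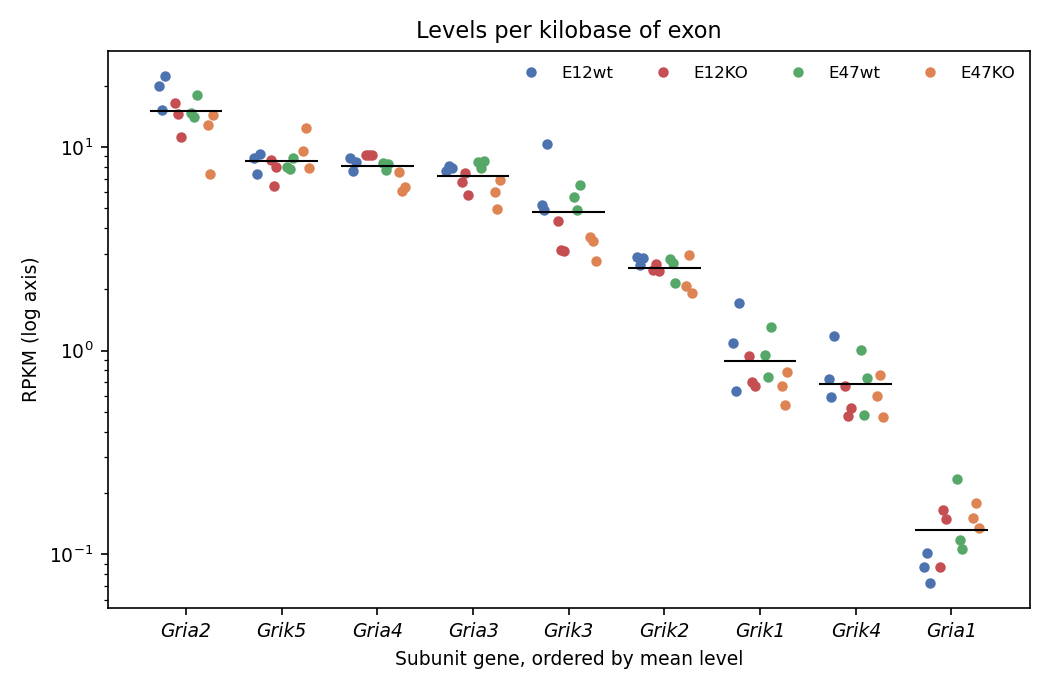
Level of each subunit gene in RPKM on a log axis, with 1 point per library coloured by group and a bar at the mean of the 12 libraries. Gria2 lies highest with a mean of 15.1 RPKM, Grik5, Gria4 and Gria3 overlap one another, and Gria1 lies below all others with a mean of 0.132 RPKM.

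In the E12 knockout, 7 of the 9 subunit genes had a fitted log2 fold change below 0, with a median of −0.24, where 48.6% of all 14755 genes tested lay below 0 around a median of 0.00. In the E47 knockout, 7 of the 9 also lay below 0, with a median of −0.29, against 51.0% of 14965 genes and a median of −0.01. All 5 kainate subunits lay below 0 in the E12 line and 4 of 5 in the E47 line, while 2 of 4 and 3 of 4 AMPA subunits did. Grik3, a kainate receptor subunit, was lowest relative to wild type in both lines, at 0.518 times the wild-type level in the E12 line and 0.574 times in the E47 line. A gene was called where the p-value of edgeR's quasi-likelihood test, adjusted by Benjamini-Hochberg (BH) over all genes tested, was under 0.05. No member was called in the E12 knockout, where 0.0407% of all genes were, and none in the E47 knockout, where 0.0134% were. At an unadjusted p under 0.05, members passed only on the lower side: 3 of 9 in the E12 line (Gria2, Gria3 and Grik3), against 4.67% of all genes, and 2 of 9 in the E47 line (Gria3 and Grik3), against 1.06%. The 3 knockout libraries all lay below the 3 wild types for 2 members in the E12 line (Gria3 and Grik3), as they did for 7.17% of all genes, and for 3 members in the E47 line (Gria3, Gria4 and Grik3), as for 3.88%. They all lay above for Gria4 alone in the E12 line, against 6.47% of all genes, and for no member in the E47 line, against 4.02%. All 9 members passed the low-count filter in every comparison. DESeq2 on the same counts likewise called no member in either line, where it called 0.55% of the genes it adjusted in the E12 line and 0.0221% in the E47 line.

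**Figure D2:**
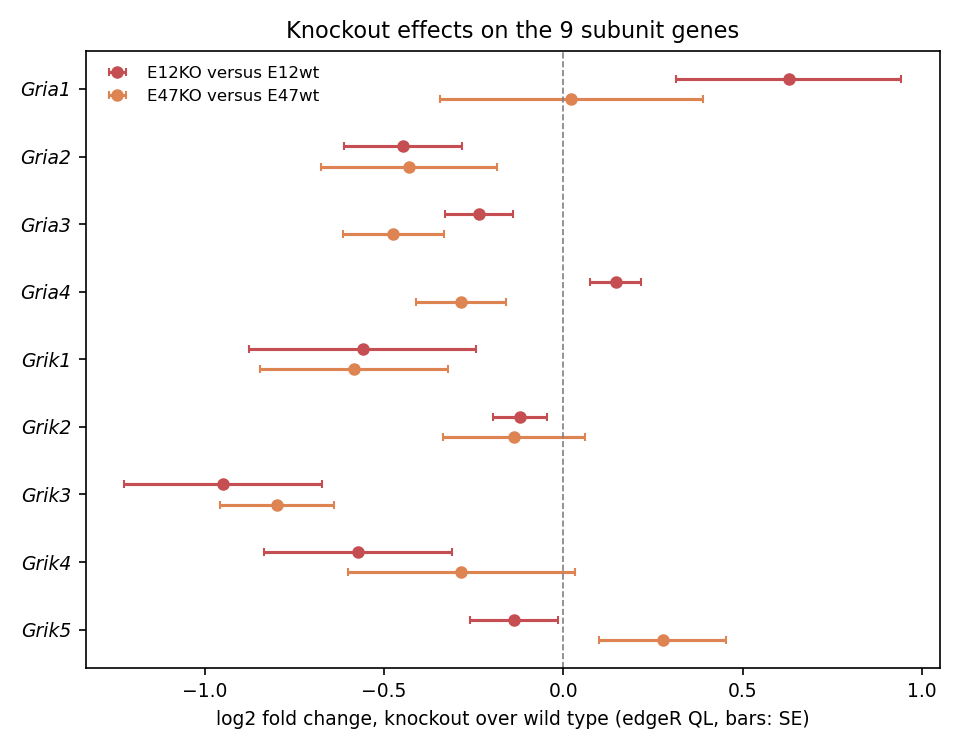
Fitted log2 fold change of each subunit gene (horizontal axis, knockout over wild type, bars ± SE) in the E12 line and in the E47 line, from edgeR's quasi-likelihood fit of 3 against 3 libraries. Grik3 lies farthest below 0 in both lines, at −0.95 and −0.80, and Gria4 lies on opposite sides of 0.

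**Figure D3:**
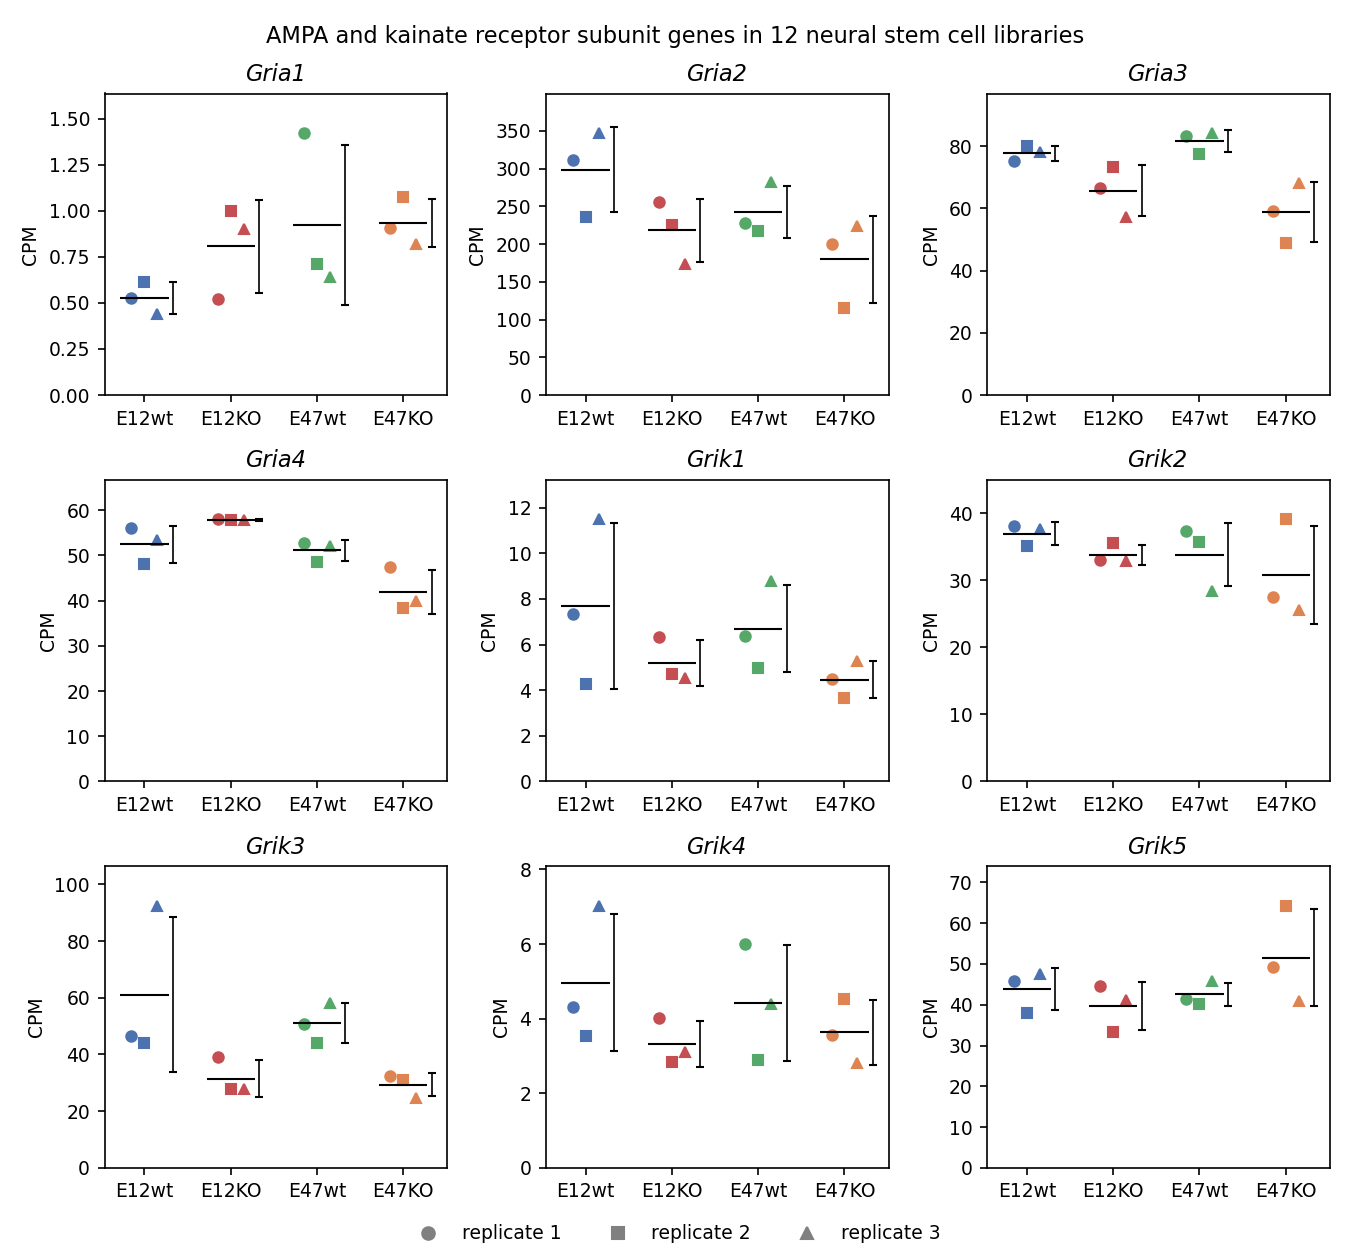
CPM of each subunit gene in the 12 libraries (vertical axis, scaled per gene and starting at 0), by group, with the mean as a line, the SD as a bar and the replicate number as the symbol. The Grik3 values of both knockouts lie below those of their wild types, where E12wt replicate 3 is the highest at 92.5 CPM.

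Grik3 encodes GluK3, a kainate subunit of low glutamate affinity. Its CPM in E12wt replicates 1 to 3 were 46.6, 44.1 and 92.5, and those in E12KO 38.9, 27.9 and 27.7. The E47wt libraries had 50.9, 44.2 and 58.2 CPM and the E47KO libraries 32.3, 31.0 and 24.8 CPM. Neither pair of groups overlapped, and replicate 3 of E12wt was far above every other library. The log2 fold change was −0.95 ± 0.28 (SE) in the E12 line by edgeR, with an unadjusted p of 0.00802 and a BH-adjusted p of 0.507. For the E47 line edgeR gave −0.80 ± 0.16 (SE), with an unadjusted p of 0.00133 and a BH-adjusted p of 0.971. Fewer cells that carry a transcript and less of it per cell cannot be told apart in RNA from whole cultures. Without E12wt replicate 3 the E12 value was −0.53 ± 0.14, with the groups still apart and an edgeR BH-adjusted p of 0.630. Without E47KO replicate 2 the E47 value was −0.84 ± 0.17.

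The authors' deposited table of the E47 comparison lists Grik3 at a log2 fold change of −0.78 ± 0.18 (SE) with an adjusted p of 0.0294. It is the only subunit gene called at 0.05 in the authors' deposited table of the E47 comparison, where 0.0796% of 12556 genes are called and 0.0558% are called lower. In the authors' deposited table of the E12 comparison, Grik3 has an adjusted p of 0.342 and no subunit gene is called, against 0.513% of 12088 genes. Gria1 is not in either of these tables, and the other 8 members are in both. DESeq2 was rerun on both-strand counts of the genes in the deposited E47 table, a choice made after seeing the data, and it gave −0.78 ± 0.18 with an adjusted p of 0.0330. On opposite-strand counts, with 22669 genes adjusted, DESeq2 gave −0.79 ± 0.19 and an adjusted p of 0.0683. The size of the Grik3 difference was thus nearly the same in these fits, and whether it passed 0.05 differed between fits that differ in the test, the strand of the counts and the genes adjusted together. Among the 4 libraries with Y-linked transcripts, Grik3 was at 44.2 CPM in E47wt replicate 2 and at 24.8 to 32.3 CPM in E47KO. With sex as a covariate, edgeR gave −0.59 ± 0.22 in the E47 line. In any fit with this covariate, the E47 effect rests on E47wt replicate 2, the only wild type with Y-linked transcripts, against the E47KO libraries. Sex and genotype are thus nearly confounded in the E47 line.

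**Figure D4:**
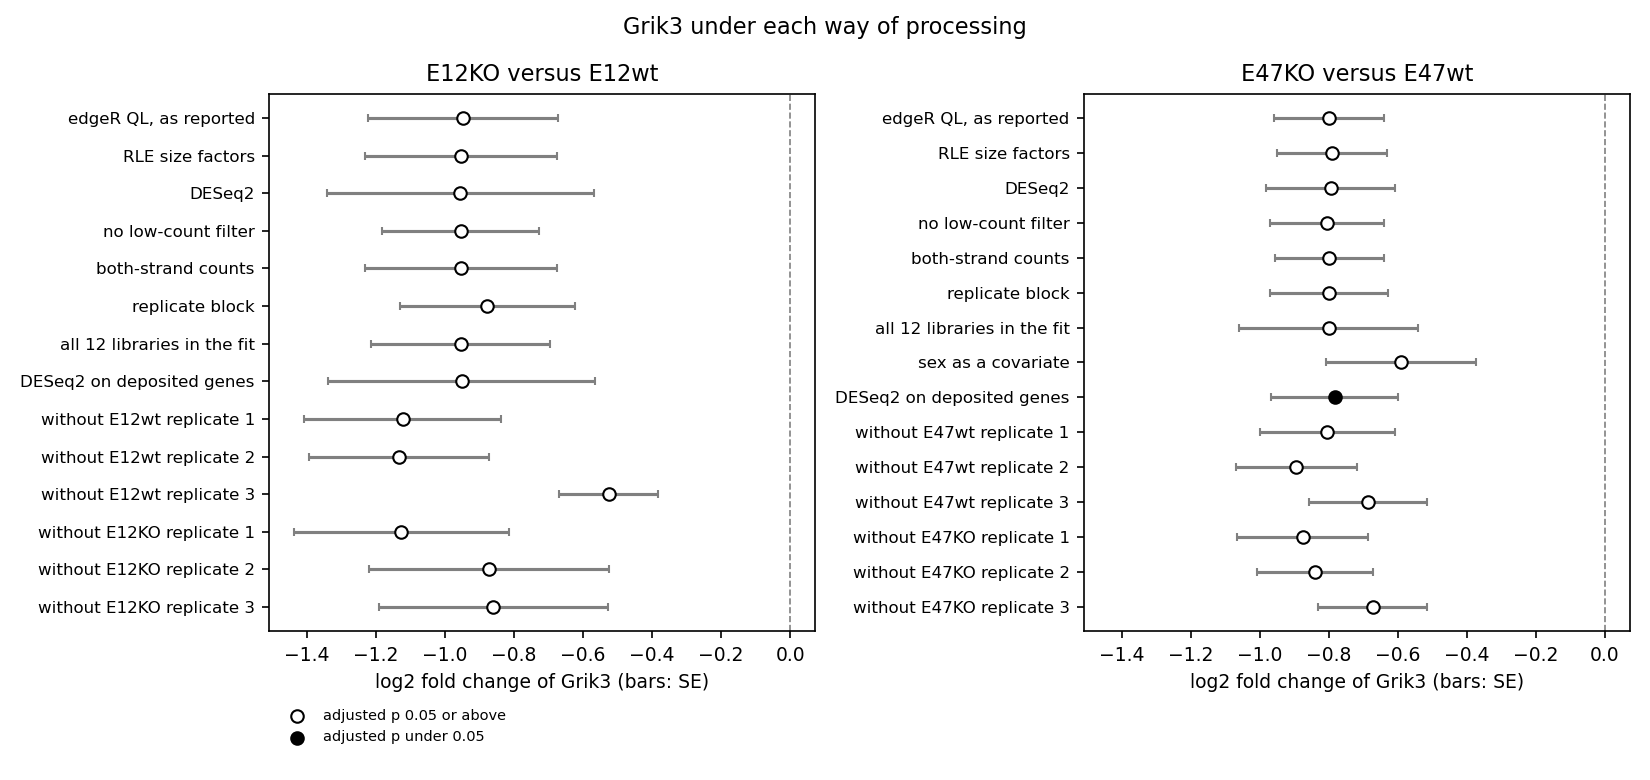
Log2 fold change of Grik3 (horizontal axis, bars ± SE) in the E12 line on the left and the E47 line on the right, under each way of processing named on the vertical axis, with a filled point where the adjusted p was under 0.05. All values lie below 0, the E12 value nearest to 0 is the one without E12wt replicate 3, at −0.53, and the filled point is DESeq2 on the genes of the deposited E47 table.

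Markers of the oligodendrocyte lineage were compared as well, and edgeR called none of them in either line. All 9 of its 10 listed markers that were tested lay below 0 in the E12 line, with a median log2 fold change of −0.60, and 4 of 9 did in the E47 line, with a median of 0.06. Their summed level was 1102 to 1602 CPM in E12wt, 965 to 1191 CPM in E12KO, 1057 to 1528 CPM in E47wt and 1149 to 1527 CPM in E47KO. The sums of knockout and wild type thus overlapped in both lines. Pdgfra, a growth factor receptor used as a marker of oligodendrocyte precursors, had 46.3, 44.8 and 93.3 CPM in the E12wt libraries, against 34.7, 22.3 and 15.3 CPM in those of E12KO. Its E47wt values were 41.6, 35.0 and 57.7 CPM and its E47KO values 24.6, 55.8 and 28.3 CPM. Replicate 3 of E12wt was thus the highest library for both Pdgfra and Grik3. This was not particular to Pdgfra. The same library was the highest for the neuron markers Dcx, at 58.7 CPM, and Elavl3, at 29.6 CPM, but not for Map2, at 1041 CPM. Every E47KO library had a Grik3 level below the range of E47wt. The Pdgfra level lay below its own E47wt range in E47KO replicates 1 and 3 and within it in E47KO replicate 2. The same held for Dcx, with 17.8, 29.4 and 14.1 CPM in E47KO against 31.0, 25.4 and 30.8 CPM in E47wt. Mog, a marker of mature oligodendrocytes, stayed under 0.1 CPM in every library. Neuron markers lay below 0 for 7 of 9 tested genes in the E12 line (median −0.38) and 8 of 9 in the E47 line (median −0.15). Astrocyte markers lay above 0 for 5 of 8 genes in the E12 line (median 0.29) and 6 of 8 in the E47 line (median 0.57). Their sums were 733 to 1062 CPM in E12wt and 923 to 1141 CPM in E12KO. In E47wt they were 713 to 1044 CPM and in E47KO 810 to 1283 CPM, so that the groups overlapped in both lines. The highest sum was that of E47KO replicate 2, with 919 and 810 CPM in E47KO replicates 1 and 3. Mesenchymal and meningeal markers summed to 12.4 to 17.4 CPM in E12wt and to 9.41 to 9.997 CPM in E12KO, where edgeR called Col1a1, Col1a2 and Bgn lower. Of the 5 genes of this list tested in the E12 line 4 lay below 0, and the other, Foxc1, a transcription factor, was at 0.45 ± 0.18 by edgeR (unadjusted p = 0.0392, BH-adjusted p = 0.537). The E12wt libraries had 7.35, 6.56 and 4.39 CPM of Foxc1, and all E12KO libraries lay above, with 8.09, 8.60 and 8.15 CPM. In the E47 line they summed to 5.94 to 21.5 CPM in E47wt and to 7.33 to 9.64 CPM in E47KO, with 3 of 4 tested genes below 0. The part of these cell types in the subunit values was not tested.

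Grik1 encodes GluK1. The E12wt libraries had 7.35, 4.26 and 11.5 CPM of it and the E12KO libraries 6.35, 4.72 and 4.54 CPM. For E47wt the values were 6.37, 4.97 and 8.77 CPM, and for E47KO 4.49, 3.64 and 5.26 CPM. Groups overlapped in both lines, and replicate 3 of E12wt was again the highest library. The log2 fold changes by edgeR were −0.56 ± 0.32 in the E12 line and −0.58 ± 0.26 in the E47 line, with BH-adjusted p of 0.592 and 0.971. Leaving out E12wt replicate 3 brought the E12 value to −0.16. Each E47KO library of Grik1 was below the E47wt library of the same number, although no label says that equal numbers are pairs. The E47 value was −0.33 without E47wt replicate 3 and −0.15 ± 0.35 with sex as a covariate.

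Grik2, which encodes GluK2, varied least among the kainate subunits, with a ratio of highest to lowest library of 1.53. In CPM, the E12wt libraries had 38.1, 35.0 and 37.7, the E12KO libraries 33.1, 35.5 and 32.8, the E47wt libraries 37.3, 35.6 and 28.5, and the E47KO libraries 27.6, 39.1 and 25.5. The groups overlapped in each line. Fitted with edgeR, its log2 fold changes were −0.12 ± 0.08 and −0.14 ± 0.20, with BH-adjusted p of 0.621 in the E12 line and 0.971 in the E47 line. With 1 library left out, the Grik2 value of the E47 line ranged from −0.35 without E47KO replicate 2 to −0.0043 without E47KO replicate 3.

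Grik4 and Grik5 encode the high-affinity subunits GluK4 and GluK5. The CPM of Grik4 were 4.31, 3.55 and 7.03 in E12wt, 4.01, 2.85 and 3.11 in E12KO, 5.99, 2.88 and 4.38 in E47wt, and 3.56, 4.52 and 2.81 in E47KO. Its groups overlapped, and edgeR gave log2 fold changes of −0.57 ± 0.26 (BH-adjusted p = 0.557) and −0.28 ± 0.32 (BH-adjusted p = 0.971). Without E12wt replicate 3 the E12 value of Grik4 was −0.24. With 1 library left out its E47 value ranged from −0.52, when that was E47wt replicate 2, to −0.0056, when it was E47wt replicate 1. It turned to 0.33 ± 0.40 with sex as a covariate. Those of Grik5 were 45.9, 38 and 47.6 in E12wt, 44.6, 33.2 and 41.2 in E12KO, 41.5, 40.3 and 45.8 in E47wt, and 49.4, 64.3 and 40.9 in E47KO, and its groups overlapped too. It was the only kainate subunit with a value above 0 in the E47 line, at 0.28 ± 0.18 (edgeR, BH-adjusted p = 0.971), and its E12 value was −0.14 ± 0.12 (BH-adjusted p = 0.728). The latter was −0.031 without E12KO replicate 2 and −0.23 without E12wt replicate 2. The highest Grik5 library was E47KO replicate 2, and without it the E47 value was 0.09.

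Gria2 was the most abundant AMPA subunit. The E12wt libraries had 312, 236 and 347 CPM and the E12KO libraries 255, 225 and 174 CPM. Those of E47wt had 228, 218 and 282 CPM and those of E47KO 201, 115 and 225 CPM. Knockout and wild-type values overlapped in both lines. By edgeR the log2 fold change was −0.45 ± 0.17 in the E12 line, with an unadjusted p of 0.0253 and a BH-adjusted p of 0.528. It was −0.43 ± 0.25 in the E47 line, with an edgeR BH-adjusted p of 0.971. The lowest Gria2 value came from E47KO replicate 2, and without that library the E47 value was −0.19 ± 0.13. Set against the E47wt library of the same number, each of the 3 E47KO libraries was lower in Gria2. With the replicate block the edgeR value was −0.48 ± 0.17 (BH-adjusted p = 0.866). No label says that equal numbers are pairs. For Gria1, Grik2, Grik4 and Grik5 the same-numbered E47 libraries differed in both directions.

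Gria3, on the X chromosome, encodes GluA3. Measured in CPM, it had 75.1, 80.0 and 78.1 in E12wt, 66.7, 73.4 and 57.1 in E12KO, 83.2, 77.5 and 84.3 in E47wt, and 59.3, 48.8 and 68.1 in E47KO. Every knockout library lay below every wild-type library of its line. The edgeR log2 fold change was −0.24 ± 0.09 in the E12 line, with an unadjusted p of 0.0347 and a BH-adjusted p of 0.534. It was −0.47 ± 0.14 in the E47 line, with an unadjusted p of 0.0110 and a BH-adjusted p of 0.971 by edgeR. In the 4 libraries with Y-linked transcripts, Gria3 was at 77.5 CPM in E47wt replicate 2 and at 48.8 to 68.1 CPM in E47KO, and with sex as a covariate the E47 value was −0.40 ± 0.22. Without E47KO replicate 2 it was −0.36 ± 0.09. The E12 value of Gria3 was −0.14 without E12KO replicate 3.

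Gria4 encodes GluA4, an AMPA subunit that is known for fast channel kinetics. The E12wt libraries had 56.0, 48.0 and 53.4 CPM and the E12KO libraries 58.0, 57.7 and 57.7 CPM, so that the latter all lay above. The E47wt libraries had 52.8, 48.5 and 52.0 CPM and the E47KO libraries 47.5, 38.3 and 40.0 CPM, so that the latter all lay below. The edgeR log2 fold changes were 0.15 ± 0.07 in the E12 line (BH-adjusted p = 0.567) and −0.29 ± 0.12 in the E47 line (BH-adjusted p = 0.971). Without E12wt replicate 2 the E12 value was 0.089. Both differences were small beside those of Grik3, and neither passed the adjusted test.

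Gria1, which encodes the GluA1 chain of many synaptic AMPA receptors in the adult forebrain, had few reads. The groups held 68 reads in E12wt, 99 in E12KO, 115 in E47wt and 123 in E47KO, summed over their 3 libraries. As CPM, these were 0.525, 0.612 and 0.439 in E12wt, 0.523, 1.00 and 0.902 in E12KO, 1.42, 0.710 and 0.638 in E47wt, and 0.907, 1.08 and 0.818 in E47KO. All of these are above the floor of 3 reads. Knockout and wild-type groups overlapped in both lines, and edgeR gave 0.63 ± 0.31 in the E12 line (BH-adjusted p = 0.572) and 0.02 ± 0.37 in the E47 line (BH-adjusted p = 0.995).

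The make-up of each receptor family was described as the share of each subunit in the summed RPKM of its family. Gria2 made up 39.7 to 57.6% of the AMPA subunits over the 12 libraries, with a median of 48.8%. The Gria4 share was 24.2, 24.5 and 21.8% in E12wt and 28.3, 29.3 and 34.9% in E12KO, which did not overlap. In the E47 groups it was 26.4, 25.9 and 23.5% in E47wt and 28.3, 32.7 and 22.8% in E47KO, which did. Gria3 took 20.4 to 26.6% and Gria1 at most 0.958%.

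Among the kainate subunits, Grik5 and Grik3 made up most of the total. The Grik3 share was 27.7, 30.4 and 40.8% in E12wt and 25.4, 23.2 and 21% in E12KO. For the E47 groups it was 30.7, 29.6 and 33.2% in E47wt and 21.8, 17.1 and 19.9% in E47KO. Grik5 took 47.3, 45.6 and 36.5% in E12wt, 50.5, 48.0 and 54.1% in E12KO, 43.5, 46.9 and 45.3% in E47wt, and 57.9, 61.8 and 57.1% in E47KO. In both lines the knockouts thus had a smaller share of Grik3 and a larger share of Grik5 than their wild types, with no overlap. The mean Grik3 share was 23.2% in E12KO against 33% in E12wt, a difference of −9.79 percentage points, and 19.6% in E47KO against 31.2% in E47wt, a difference of −11.5 points. The mean Grik5 share was 7.74 points higher in E12KO and 13.7 points higher in E47KO. Without E12wt replicate 3, a choice made after seeing the data, the E12 differences were −5.87 points for Grik3 and 4.42 points for Grik5, and the groups stayed apart. Two-sided exact permutation tests of these 4 differences, and of that of the Gria4 share in the E12 line, gave p = 0.1, the smallest that 3 against 3 libraries allow, and 0.36 after BH adjustment over the 18 shares tested. Groups of 3 libraries without overlap always give a p of 0.1 in this test, so it adds nothing to the lack of overlap. Shares of one family sum to 100%, so that a lower share of one subunit raises the others.

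**Figure D5:**
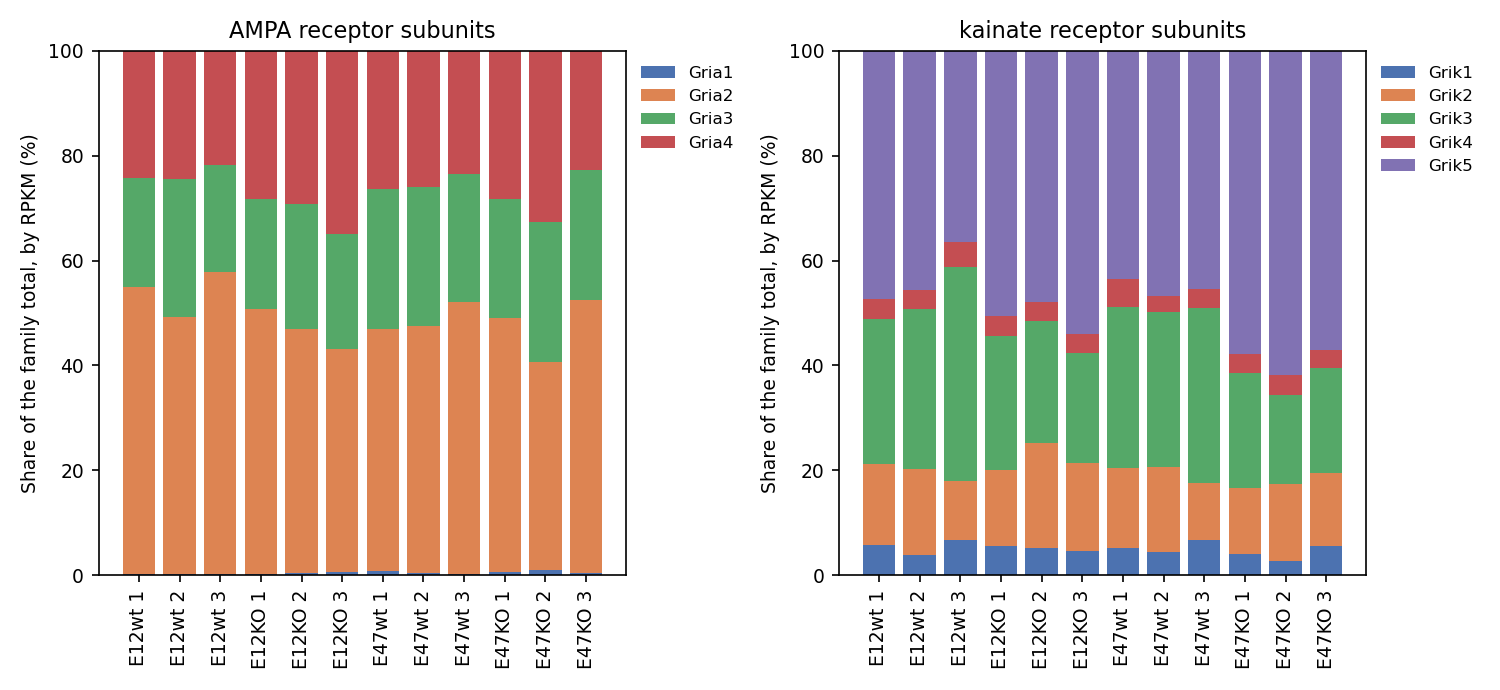
Share of each subunit in the summed RPKM of the AMPA family (left) and of the kainate family (right), as stacked bars to 100% with 1 bar per library. The Grik3 segment is 17.1 to 25.4% in the 6 knockout libraries and 27.7 to 40.8% in the 6 wild types, and Gria1 is barely visible.

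The 2 knockout effects were set against each other as an interaction in all 12 libraries. It had no sex covariate, and all libraries with Y-linked transcripts were of the E47 line, most of them knockouts. A difference between the lines can thus not be told apart from one of sex. EdgeR called no member and 0.0% of 15277 genes, DESeq2 called no member and 0.00422% of the genes it adjusted, and 1 of 9 members had an unadjusted edgeR p under 0.05, against 3.03% of all genes. That member was Gria4, whose E47 effect was lower than its E12 effect by a log2 difference of −0.43 ± 0.14 (edgeR, unadjusted p = 0.00914, BH-adjusted p = 0.932). For Grik5 the difference was 0.42 ± 0.23, with an unadjusted edgeR p of 0.0947. For Grik3 it was 0.15 ± 0.36, so that the data did not show the size of the Grik3 effect to differ between the lines. The other 6 members lay between −0.60 ± 0.49 (Gria1) and 0.29 ± 0.44 (Grik4).

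The wild types of the 2 lines, which also served as controls above, were compared to see how far the members vary between control groups. None was called by edgeR (0.0% of 14892 genes were), and none had an unadjusted p under 0.05, against 3.81% of all genes. DESeq2 called 0.0266% of the genes it adjusted, and no member. Gria1 was the only member without overlap, higher in E47wt by 0.79 ± 0.37, where 5.08% of all genes were higher and 4.44% lower without overlap. Values of the other 8 members lay between −0.30 ± 0.15 (Gria2) and 0.07 (Gria3).

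Auxiliary proteins bind the channels and set their gating and transport. Of 12 AMPA receptor auxiliary genes, 11 were tested in the E12 line, with 7 below 0 and a median of −0.08, and 10 in the E47 line, with 4 below 0 and a median of 0.04. None was called by edgeR in either line, and by unadjusted p under 0.05 1 was lower and 1 higher in each, where 4.67% of all genes were lower and 4.29% higher in the E12 line and 1.06% and 1.13% in the E47 line. Those with the highest level per length were Cacng4, Cacng7, Cnih2 and Cacng5, which encode transmembrane AMPA receptor regulatory proteins and a cornichon. Cacng4 had a log2 fold change of −0.25 ± 0.14 in the E12 line and −0.25 ± 0.16 in the E47 line. For Cacng7 the values were −0.12 ± 0.10 and 0.19 ± 0.17, and for Cnih2 −0.08 ± 0.11 and 0.00 ± 0.18. Cacng5 was the one with an unadjusted edgeR p under 0.05 on the higher side, at 0.72 ± 0.28 (unadjusted p = 0.0324, BH-adjusted p = 0.534) in the E12 line and 1.17 ± 0.47 (unadjusted p = 0.0397, BH-adjusted p = 0.971) in the E47 line. Its E47wt libraries had 10.6, 7.94 and 5.41 CPM and its E47KO libraries 14.6, 30.7 and 8.61 CPM, which overlapped, with E47KO replicate 2 far above the rest. Without that library the E47 value of Cacng5 was 0.54 ± 0.32 by edgeR (unadjusted p = 0.132), and without E12KO replicate 1 its E12 value was 0.46 ± 0.28 (unadjusted p = 0.139). Neto1 and Neto2, the auxiliary proteins of kainate receptors, were at −0.11 ± 0.10 and 0.01 ± 0.09 in the E12 line and at −0.32 ± 0.17 and −0.31 ± 0.24 in the E47 line, and neither was called.

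Genes of receptor assembly and trafficking numbered 20, of which 17 were tested in each line. Of these, 11 lay below 0 in the E12 line (median −0.10) and 7 in the E47 line (median 0.01), and edgeR called none. Olfm2, Nptx2, Nsf and Gripap1 had the highest levels per length, with log2 fold changes of 0.06, 0.08, −0.10 and −0.11 in the E12 line and −0.25, 0.09, −0.03 and 0.13 in the E47 line. Nptx1, singled out after its values were seen, encodes a secreted pentraxin that clusters AMPA receptors. The E12wt libraries had 23.0, 17.6 and 14.9 CPM of it and the E12KO libraries 40.4, 31.7 and 33.4 CPM, with no overlap. Its log2 fold change was 0.93 ± 0.16 by edgeR, with an unadjusted p of 0.000311 and a BH-adjusted p of 0.241, while DESeq2 gave an adjusted p of 1.00e-05. The authors' deposited table of the E12 comparison lists Nptx1 at an adjusted p of 3.90e-05, so that the call for it differed between tools. Its E47 value was 0.26 ± 0.27 by edgeR.

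The 4 genes of receptor RNA editing and repression were Adarb1 and Adar, which encode RNA-editing deaminases, and Rest and Rcor1, which encode a repressor of neuronal genes and its partner. Their log2 fold changes by edgeR lay between −0.18 and 0.15 in the E12 line and between −0.09 and −0.03 in the E47 line, and none was called. Editing itself cannot be read from counts per gene.

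Likeness of pattern was measured as Pearson's r of log2 CPM over the 12 libraries, among 12587 genes, for the most abundant AMPA and kainate subunit by CPM. The libraries share their groups and the ones that stand apart, so r is a description. The genes most like Gria2 were Nfx1 (r = 0.974), Gucy1b1 (0.966), Fnbp1l (0.957), Spred3 (0.951) and Emb (0.948). Among the other subunits, r with Gria2 was highest for Grik1 (0.838) and Gria3 (0.803), was 0.671 for Grik3, and was lowest for Grik5 (−0.39). Gria1, with a mean under 1 CPM, was not among the genes compared. The genes most like Grik5 were Cdk10 (0.963), Acd (0.959), Gramd1a (0.954), Iglon5 (0.953) and Sun2 (0.951).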

How the data were processed

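RNA of 12 libraries was analysed from gene read counts, which the authors deposited per library for both strands, the sense strand and the opposite strand. The submitters' processing notes name STAR 2.5, DESeq2, DESeq and genome build mm9. The authors also deposited 1 table per line, with normalized signal, log2 fold changes, a score (fold change divided by SE) and p-values. Their signal is a both-strand count over a factor that is constant within a library, and repeated entries (88 in the E12 table, 90 in the E47 table) were used once. Opposite-strand counts, which held 97.1 to 97.2% of stranded gene reads, were tested. Reads without a feature (5.93 to 8.07%) and ambiguous reads (0.907 to 0.973%) stayed out. The floor of 3 reads covers counting error only.

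Counts were fitted in R 4.3.3 with the quasi-likelihood F test of edgeR 4.0.16 (low-count filter by group, TMM scaling, two-sided, BH over all genes, called under 0.05), each line with its own 6 libraries and the interaction with all 12. The scripts were tested on simulated data of the E12 comparison only. There edgeR called 81 of 100 genes changed 2-fold and 48 of 100 changed 1.5-fold, with 8 false calls. A gene not called is thus not shown to be unchanged. CPM values are TMM-scaled over the 12 libraries and RPKM values divide them by exon length from GENCODE release 21 of the mouse (GRCm38), which differs from the authors' build. DESeq2 1.42.0, other scalings, no filter, both-strand counts, a replicate block, sex as a covariate and leaving out each library were alternatives.

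All 9 members were named, and from each of the other 7 lists of receptor and glutamate genes the called genes and the 4 highest per length, or all of a list under 5. Cell type markers and other genes outside this rule were chosen after their values were seen. One item that this rule names is not reported here. Members and lists were chosen with earlier results of these data known. Same-numbered deviations correlated at 0.0894, 0.0582 and −0.00797 in the E12 line. This shows no pairing there, but so few libraries cannot exclude that same numbers share an origin. In the E47 line same-numbered deviations correlated at 0.100, 0.229 and 0.455, while E47wt replicate 1 with E47KO replicate 2 stood at 0.148. Treating the numbers as pairs there rests on the data alone, since no label says so.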

Additional observations from a re-analysis of the deposited data

Results flagged for a closer look

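For Gria4, the 3 E12KO libraries all lay above the 3 E12wt libraries and the 3 E47KO libraries all lay below the 3 E47wt libraries. The test of the difference gave a log2 difference of −0.43 ± 0.14 (E47 effect over E12 effect), with an edgeR unadjusted p of 0.00914 and a BH-adjusted p of 0.932, so that it did not pass over all genes. Its value was between −0.53 and −0.36 when each library was left out in turn. No sex covariate was fitted in this test, and only the E47 line held libraries with Y-linked transcripts. The difference between the lines thus cannot be told apart from one of sex.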

How the results depend on the processing

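No subunit gene was called under any alternative run in the E12 line, the interaction or the wild types. In the E47 line 1 was, Grik3, by DESeq2 on both-strand counts of the deposited genes. Over all genes, the E12 count of 6 became 95 with DESeq2, 63 with DESeq2 on the deposited genes, 20 without a filter, 2 with all 12 libraries in the fit, and 2 to 10 with 1 library left out. The E47 count of 2 became 5 with DESeq2, 10 on the deposited genes, 1 with sex as a covariate, and 0 to 7 with 1 library left out. The interaction count of 0 became 1 with DESeq2 and 0 to 1 with 1 library left out, and the wild-type count of 0 became 6 with DESeq2. The summed mean level of the 9 subunits moved from 48.0 to 67.4 RPKM per length of the longest transcript.

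Signs turned in the following cases. Grik4 in the E47 line became 0.33 with sex as a covariate. In the interaction, Grik2 became 0.0012 without a filter. With the replicate block, Gria2 in the interaction became −0.043, Grik3 was −0.88 in the E12 line and −0.80 in the E47 line, and the pairing changed no member's call. With 1 library left out, Gria1 in the E47 line ranged from −0.18 to 0.46. The interaction values ranged from −0.16 to 0.27 (Gria2), −0.42 to 0.28 (Grik1), −0.22 to 0.12 (Grik2), −0.27 to 0.35 (Grik3) and −0.037 to 0.58 (Grik4). The wild-type values ranged from −0.098 to 0.0096 (Gria4), −0.49 to 0.20 (Grik1), −0.44 to 0.17 (Grik3), −0.45 to 0.16 (Grik4) and −0.14 to 0.016 (Grik5). Where 2 libraries remained in a group, both shared the estimated spread with the group of 3. The cause of these shifts was not tested.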

Other observations

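Other glutamate receptor and transport genes were read in the same cultures. Of 9 NMDA and delta receptor genes, 7 were tested in the E12 line (5 below 0, median −0.12) and 8 in the E47 line (7 below 0, median −0.17), and edgeR called none. Grid1, Grin3a, Grin2c and Grin1 had the highest levels per length, at 6.83, 2.92, 1.85 and 0.810 RPKM. Singled out after their values were seen, Grin2a and Grin2b were higher in E12KO than in E12wt without overlap, at 0.86 ± 0.30 (edgeR unadjusted p = 0.0186, BH-adjusted p = 0.523) and 0.95 ± 0.33 (unadjusted p = 0.0190, BH-adjusted p = 0.523). Their levels were low, at 0.373 to 0.712 CPM of Grin2b in E12KO against 0.262 to 0.301 CPM in E12wt. For Grin2a the groups nearly touched, at 0.996 CPM (40 reads) in E12KO replicate 1 and 0.984 CPM (45 reads) in E12wt replicate 1. Of all genes, 6.47% were higher without overlap in the E12 line. Grin1, whose product is needed in every NMDA receptor, thus lay between Grik1 and Grik4 per length. Among 8 metabotropic receptors 4 were tested in each line. Grm5 and Grm3 led at 25 and 14.1 RPKM, Grm4 was at 0.399 RPKM, and Grm6 had no read in any library. Grm3 was at a log2 fold change of −0.35 ± 0.12 in the E47 line without overlap of the groups (edgeR unadjusted p = 0.0228, BH-adjusted p = 0.971). In that line 3.88% of all genes were lower without overlap.

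Of 13 genes of glutamate transport and metabolism, 11 were tested in each line, with 3 below 0 in the E12 line (median 0.10) and 7 in the E47 line (median −0.17), and none was called. Slc1a3, Glul, Glud1 and Slc1a4 led at 116, 95.2, 67.8 and 43.4 RPKM. Their log2 fold changes by edgeR were between −0.01 and 0.13 in the E12 line and between −0.18 and 0.25 in the E47 line. Slc17a6, the vesicular glutamate transporter of many projection neurons, had no read in any library.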
